A study of Mus musculus with 4 samples.

Results

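The cytochrome P450 genes of the mouse were examined in CUT&RUN peak lists from medullary thymic epithelial cells. Members were all protein-coding RefSeq genes of mm10 whose symbol is Cyp followed by a number, a letter and a number, with Cyp51 added, which gave 93 of 21631 protein-coding genes on chromosomes 1 to 19 and X. Genes with a longer name form, such as Cyp2ab1 or Cyp3a41a, were left out by the rule. A library called a gene when at least 1 of its peak summits lay inside it or within 5 kb of either end.

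CUT&RUN releases DNA around an antibody bound in permeabilised cells with a protein A-MNase fusion. There were 2 libraries of mTEChi cells and 2 of mTEClo cells, from thymi of mice 4 to 5 weeks old, enriched for EpCAM+ cells, with 500000 cells per condition. All were Trp53-WT, so no library lacked p53, and the labels give no strain, no control library and no word on pooling of animals. In common usage mTEChi cells carry much surface MHC class II and include the cells that express Aire, and mTEClo cells carry little. By their titles the samples were made with an anti-P53 antibody, while their protocol text names one against BAF155, a chromatin remodeller subunit, so the protein that the peaks mark is not settled. The labels do not say whether replicates are separate mice, so every spread given here is between these libraries and may be technical.

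Cytochrome P450 enzymes are haem monooxygenases that put oxygen into sterols, fatty acids, vitamins, drugs and dietary compounds, with electrons passed on by partner reductases. A few are ancient single-copy enzymes of sterol, bile acid, steroid, vitamin D and retinoic acid metabolism. Most of the others belong to the Cyp2, Cyp3 and Cyp4 families, which spread by tandem duplication in rodents and are expressed mainly in liver, kidney, intestine, lung or nasal tissue. Aire-expressing medullary cells are known for transcribing many genes of other tissues at low level, and thymic epithelium has been described as a local source of glucocorticoids. Peaks show where fragments were recovered and do not measure RNA.

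The lists held 73510 and 85308 peaks in mTEChi replicates 1 and 2, against 89809 and 69359 in mTEClo replicates 1 and 2. Read numbers are not part of peak lists, so depth is unknown. All 4 libraries called 9 of 9 marker genes of medullary thymic epithelium, 4 of 8 thymocyte markers and 1 of 6 hepatocyte markers. The share of all protein-coding genes was 51.9%. Peaks do not measure RNA, so these calls do not settle which cells were present. Of 8 thymocyte markers, 5 and 7 were called in the mTEChi libraries and 7 and 8 in the mTEClo libraries, and of 6 hepatocyte markers 1 and 3 against 2 and 2. Of all protein-coding genes, 69.3% and 73.0% were called in the mTEChi libraries and 75.5% and 68.8% in the mTEClo libraries, so the thymocyte markers were below that share in mTEChi 1 and above it in the other 3 libraries. Carried-over thymocytes and the part they may have in the calls were not tested.

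Cyp genes were called less often than the average gene in every library. In the mTEChi libraries 49 and 59 of the 93 genes were called, which is 52.7% and 63.4%, against 62 and 46 in the mTEClo libraries, which is 66.7% and 49.5%. These shares lie under those of all protein-coding genes, which were 69.3% and 73.0% in mTEChi and 75.5% and 68.8% in mTEClo. The order of the libraries was that of their list lengths, and the 2 cell states overlapped. Both mTEChi libraries called 39 Cyp genes (41.9%, against 61.2% of all genes), and both mTEClo libraries called 37 (39.8%, against 63.1%). All 4 libraries called 24 (25.8%, against 51.9%), while 11 were called in none (11.8%, against 12.8%). The median window, a gene with 5 kb on each side, was 31.6 kb for Cyp genes and 27.3 kb for all genes, and the part of gene length in the calls was not tested. The median peak density, as peaks per 10 kb of window averaged over the libraries, was 0.295 for Cyp genes and 0.463 for all genes.

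**Figure D1:**
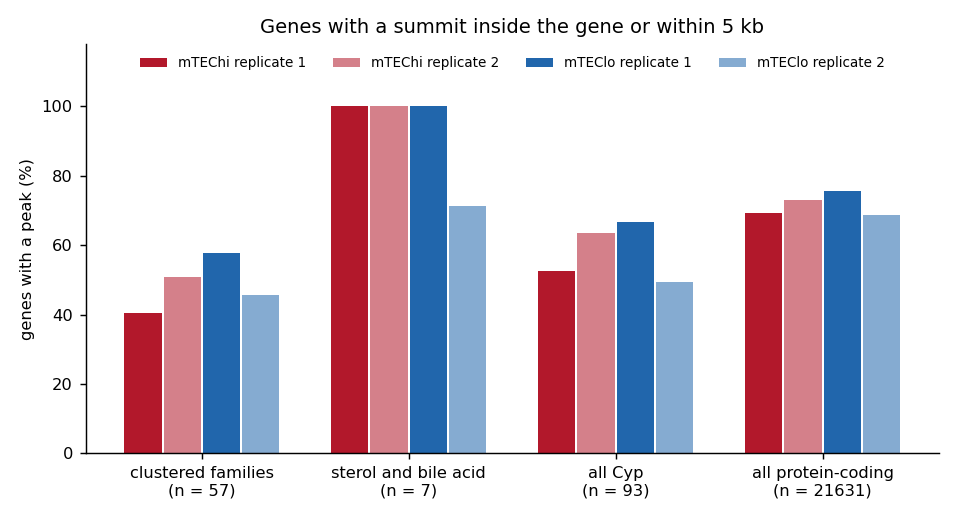
Share of genes called in each library (%, vertical axis from 0), by group of Cyp genes and for all protein-coding genes, with 1 mark per library. The clustered families lie at 40.4% to 57.9%, the sterol and bile acid genes reach 100% in 3 libraries, and all genes lie between 68.8% and 75.5%.

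The tandem families were called in all 4 libraries less often than the sterol and bile acid genes, while densities of single genes overlapped. A Cyp gene was counted as clustered when it belonged to a run of at least 3 Cyp genes with no more than 200 kb between neighbours, which held for 57 of the 93. Of these, 23 and 29 were called in the mTEChi libraries and 33 and 26 in the mTEClo libraries, and 8 were called in all 4 (14.04%). Of the 7 sterol and bile acid genes, 7 and 7 were called in mTEChi, 7 and 5 in mTEClo, and 5 in all 4 (71.4%). The share of all genes called in all 4, 51.9%, lies within the 95% interval of the sterol share, 35.9% to 91.8%. It lies above that of the clustered share, 7.29% to 25.3%. Both intervals treat genes as independent, which neighbours in a cluster are not, so they are a description and not a test. The steroid hormone list and the vitamin D and retinoid list, with 6 genes each, stood at 33.3% each. The share called in all 4 libraries in the clustered families minus that in the sterol and bile acid genes was -57.4 percentage points. The 95% interval of that difference, -78.8 to -20.1 points, also treats genes as independent and has the same limit. The median density was 0.174 peaks per 10 kb in clustered genes (range 0 to 0.949) and 0.593 in sterol and bile acid genes (range 0.206 to 0.935). Over all genes the median was 0.463. The 2 sterol genes that were missed were missed by mTEClo 2 alone, and without that library the difference in share was -78.9 points. With gene ends in place of whole genes the density difference was -0.696 peaks per 10 kb and with the 10000 highest peaks of each list it was -0.106, against -0.419 with all peaks.

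**Figure D2:**
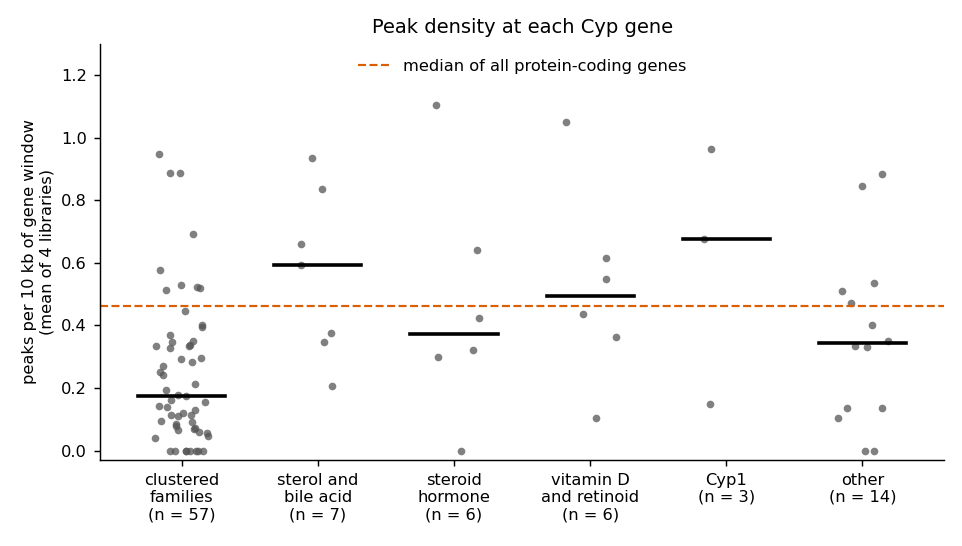
Peak density of each Cyp gene (peaks per 10 kb of gene with 5 kb on each side, mean of 4 libraries), by group, with the median of each group. Clustered genes have a median of 0.174 and reach 0.949, and sterol and bile acid genes lie between 0.206 and 0.935 with a median of 0.593.

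Cyp51, the lanosterol demethylase of cholesterol synthesis and the most conserved member of the superfamily, had 1 and 2 peaks in the mTEChi libraries, against 4 and 2 in the mTEClo libraries. The gene lies at chr5:4080674-4104697 on the minus strand. A single region over its start, chr5:4104007-4104784, held a peak of every library. The authors' scores there, the negative decimal logarithm of a p-value or q-value, were 11.7 and 3.34 in mTEChi and 7.9 and 2.62 in mTEClo. Scores can depend on the depth of a library and are used to rank peaks within a list only: the Cyp51 peak stood within the top 3.74% of the mTEChi 1 list and the top 90.2% of the mTEClo 2 list. Summits were 141 and 63 bases inside the gene in mTEChi, and 117, 540 and 399 bases inside it in mTEClo, where replicate 1 had a pair. Cyp46a1, which turns over cholesterol in neurons, had 1 and 2 peaks in mTEChi and 2 and 4 in mTEClo. Its region in all 4 libraries, chr12:108333975-108334366, lay across the start, with summits 100 and 161 bases upstream in mTEChi and 164 and 191 bases upstream in mTEClo. Scores were 3.62 and 2.95 in mTEChi and 6.35 and 8.25 in mTEClo, which put it within the top 68.6% of every list. The 250 bases upstream of these 2 genes are printed because they are the sterol gene starts with a peak in all libraries. They come from RefSeq (GRCm38.p6, the assembly of mm10), are written on the gene's strand, and have CpG dinucleotides in capitals. That of Cyp46a1 (chr12:108334066-108334315, plus strand) holds 23 CpG and contains the summits of all 4 libraries, and that of Cyp51 (chr5:4104698-4104947, minus strand) holds 20.
Cyp46a1: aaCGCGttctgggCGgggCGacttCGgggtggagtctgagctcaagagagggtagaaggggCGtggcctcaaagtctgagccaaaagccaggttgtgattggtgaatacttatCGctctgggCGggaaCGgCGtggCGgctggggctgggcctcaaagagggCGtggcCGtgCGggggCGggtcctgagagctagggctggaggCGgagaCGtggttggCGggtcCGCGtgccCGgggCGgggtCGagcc
Cyp51: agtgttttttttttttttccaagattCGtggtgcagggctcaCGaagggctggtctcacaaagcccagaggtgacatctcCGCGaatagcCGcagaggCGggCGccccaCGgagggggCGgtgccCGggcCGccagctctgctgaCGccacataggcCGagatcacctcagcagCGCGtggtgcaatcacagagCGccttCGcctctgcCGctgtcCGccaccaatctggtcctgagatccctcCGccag

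Cyp39a1, an oxysterol hydroxylase of the bile acid pathway, had 3 and 3 peaks in mTEChi and 3 and 4 in mTEClo. Its shared region, chr17:43667005-43667390, lay 175 bp outside the gene and carried scores of 8.46 and 6.61 in mTEChi and 11.4 and 6.57 in mTEClo. It stood within the top 8.0% of every list, the best worst rank of a Cyp region held by all libraries. It also lies within 5 kb of Slc25a27, so it cannot be assigned to either gene. Cyp27a1, the mitochondrial sterol hydroxylase that opens the alternative bile acid pathway, had 4 and 4 peaks in mTEChi against 4 and 1 in mTEClo. A region of Cyp27a1 at chr1:74709441-74709864 held peaks of both mTEChi libraries alone (scores 4.08 and 4.34), and another at chr1:74725906-74726334 held peaks of both mTEClo libraries alone (scores 4.6 and 3.03). Cyp7b1, the oxysterol hydroxylase of the alternative pathway and the longest gene of the group, had 6 and 3 peaks in mTEChi and 4 and 2 in mTEClo, which over its length is the lowest density of the group, 0.206 peaks per 10 kb.

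The 2 sterol genes that mTEClo 2 missed are the liver enzymes of the classic pathway. Cyp7a1, its rate-limiting hydroxylase, had 1 and 1 peaks in mTEChi and 1 and 0 in mTEClo, with summits that lay at different places in the gene. Cyp8b1, which sets the amount of cholic acid, had 2 and 1 peaks in mTEChi and 1 and 0 in mTEClo. Its best summits in mTEChi lay at chr9 positions 121919161 and 121919176, with scores of 5.07 and 5.16, and that of mTEClo 1 at 121919072, with a score of 7.39. These 3 lists thus placed a summit at nearly 1 position outside the gene, while the summits of Cyp7a1 did not coincide.

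Among the 6 steroid hormone genes, 3 and 5 were called in mTEChi (50% and 83.3%) and 4 and 3 in mTEClo (66.7% and 50%). The shares of all genes were 69.3% and 73.0% in mTEChi and 75.5% and 68.8% in mTEClo. Cyp17a1 and Cyp19a1 were called in all 4 libraries (33.3%, against 51.9% of all genes). Cyp17a1, the hydroxylase and lyase on the way to androgens, had 3 and 1 peaks in mTEChi and 2 and 1 in mTEClo. This gene had the highest density of all Cyp genes, 1.11 peaks per 10 kb. Its best scores were 4.08 and 3.83 in mTEChi and 4.4 and 2.62 in mTEClo. Cyp19a1, the aromatase that makes oestrogens, had 2 and 5 peaks in mTEChi and 5 and 7 in mTEClo. Cyp19a1 had no region held by all 4 libraries: chr9:54242579-54243145 held both mTEChi libraries alone (scores 3.62 and 2.04) and chr9:54196008-54196332 both mTEClo libraries alone (scores 5.12 and 4.93). Cyp11a1, which cleaves the cholesterol side chain in the entry step of steroid synthesis, had 3 and 3 peaks in mTEChi and 4 and 0 in mTEClo, so the 2 mTEClo libraries lay on either side of the mTEChi libraries. Of the adrenal enzymes, Cyp11b1, the last step to corticosterone, had 0 and 1 peaks in mTEChi and 1 and 0 in mTEClo. Cyp11b2, the aldosterone synthase, had 0 and 1 in mTEChi and 0 and 1 in mTEClo. The windows of Cyp11b1 and Cyp11b2 were short, 16.8 and 15.6 kb. Their densities, 0.298 and 0.320 peaks per 10 kb, lay near the median of all Cyp genes, 0.295. Cyp21a1, the adrenal steroid hydroxylase, had no peak in any library.

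The vitamin D and retinoic acid enzymes were called in 6 and 4 of 6 cases in mTEChi (100% and 66.7%) and 5 and 2 in mTEClo (83.3% and 33.3%). The shares of all genes were 69.3% and 73.0% in mTEChi and 75.5% and 68.8% in mTEClo. All 4 libraries called Cyp27b1 and Cyp26b1 (33.3%, against 51.9% of all genes). Cyp27b1, which makes active vitamin D, had 1 and 3 peaks in mTEChi and 1 and 2 in mTEClo, at 1.05 peaks per 10 kb. A region at chr10:127058104-127058513 held both mTEChi libraries alone (scores 5.07 and 3.75), and lies also within 5 kb of Marchf9. Cyp2r1, a vitamin D hydroxylase of liver, had 1 and 2 peaks in mTEChi and 1 and 0 in mTEClo. Cyp24a1, which breaks vitamin D down, had 1 and 0 peaks in mTEChi and none in mTEClo. Cyp26b1, Cyp26c1 and Cyp26a1 degrade retinoic acid. Cyp26b1 had 1 and 2 peaks in mTEChi and 2 and 3 in mTEClo. Cyp26c1 had 1 and 1 in mTEChi and 2 and 0 in mTEClo, and Cyp26a1 had 1 and 0 in mTEChi and 1 and 0 in mTEClo. Cyp26c1 and Cyp26a1 are neighbours less than 5 kb apart, so a peak between them counts for both. In this group no gene had a region held by all 4 libraries.

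The Cyp1 genes are the classic targets of the dioxin receptor Ahr. Cyp1b1, expressed outside the liver, had 1 and 1 peaks in mTEChi and 3 and 2 in mTEClo, so that the mTEClo libraries lay above the mTEChi libraries. Its region in all 4 libraries, chr17:79715494-79715978, lay 675 bp upstream of the start, with scores of 6.13 and 6.61 in mTEChi and 10.9 and 4.77 in mTEClo. Cyp1a1 had 2 and 2 peaks in mTEChi and 1 and 2 in mTEClo, and no position was shared by all: chr9:57698227-57698612 held only the mTEClo libraries (scores 5.66 and 3.48). Cyp1a2, the liver member less than 5 kb away, had no peak in mTEChi and 1 and 0 in mTEClo.

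Regions were made by merging peaks of the 4 lists that share at least 1 bp, and 7 Cyp genes had a region with a peak of every library (7.53%, against 22.7% of all genes). Of these, 3 are sterol genes (Cyp39a1, Cyp46a1 and Cyp51), 1 is Cyp1b1, 2 are clustered (Cyp4f39 and Cyp2j9) and 1 is Cyp3a13, an intestinal member of the drug-metabolising Cyp3a family that lies apart from its cluster. The Cyp3a13 region, chr5:137915290-137916173, had scores of 2.02 and 2.45 in mTEChi and 4.1 and 3.94 in mTEClo. When summits had to lie within 75 bp of each other instead, 2 Cyp genes had such a region. Most genes called in all 4 libraries were therefore called through peaks at different positions.

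**Figure D3:**
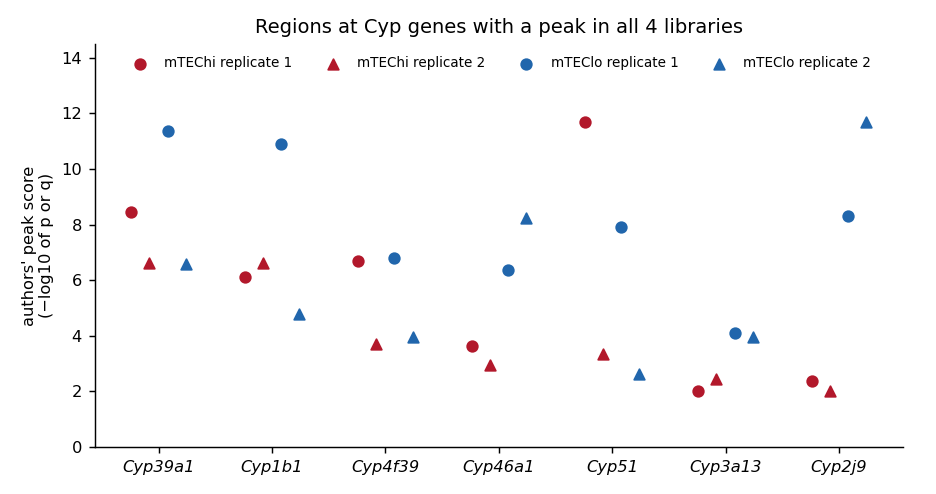
Authors' score (negative decimal logarithm of a p-value or q-value, vertical axis) of the peak in each library for the 7 Cyp regions held by all 4 libraries, mTEChi libraries left of mTEClo libraries. Cyp39a1 lies between 6.57 and 11.4 and Cyp3a13 between 2.02 and 4.1. Scores of different lists are not on 1 scale.

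The clustered families differed among themselves. The Cyp2c cluster, 14 genes of fatty acid and drug oxidation in liver, spans chr19:39006940-40187286 and held 6 and 9 peaks in mTEChi and 8 and 9 in mTEClo over 1.19 Mb, which is 5.04 and 7.56 peaks per Mb in mTEChi and 6.72 and 7.56 in mTEClo. The windows of all protein-coding genes together held 37.1 and 43.1 peaks per Mb in mTEChi and 46.4 and 35.4 in mTEClo, so the Cyp2c cluster was the emptiest stretch of Cyp genes in every library. None of its 14 genes was called in all 4 libraries. The 5 longest Cyp genes with no peak in any library were Cyp2c40, Cyp2c67, Cyp3a59, Cyp3a16 and Cyp2c65, with Cyp2c40 the longest at a window of 55.7 kb. Cyp2c38 lies within the interval of Cyp2c39, so a peak in it is counted for both.

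**Figure D4:**
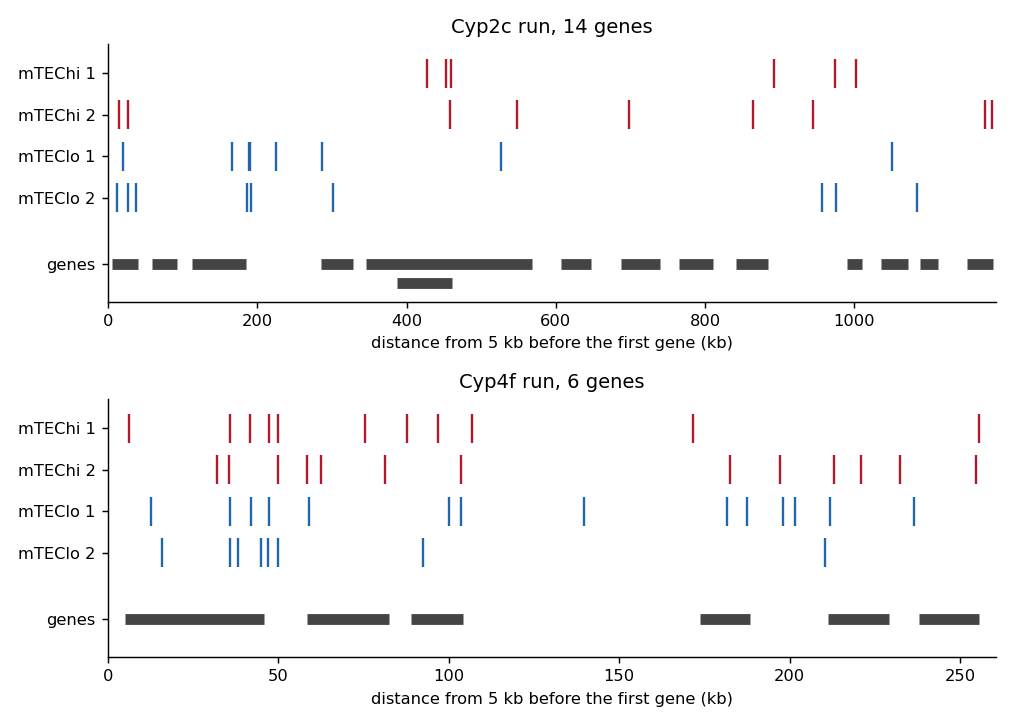
Position of each peak along the Cyp2c and Cyp4f clusters (kb from the start of the cluster window), with mTEChi libraries above mTEClo libraries and the genes as bars. The Cyp2c cluster holds 6 to 9 peaks per library over 1.19 Mb and the Cyp4f cluster 8 to 14.

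The Cyp4f cluster on chromosome 17, 6 genes for omega-hydroxylation of fatty acids and eicosanoids, held 42.2 and 49.9 peaks per Mb in mTEChi and 53.7 and 30.7 in mTEClo. It was the densest cluster in 3 libraries, and in mTEClo 2 the Cyp2d cluster was denser at 36.9. Its Cyp4f39, which makes the acylceramides of the skin barrier, had 5 and 3 peaks in mTEChi and 4 and 6 in mTEClo. A region inside Cyp4f39, chr17:32483169-32483605, held all 4 libraries with scores of 6.68 and 3.72 in mTEChi and 6.79 and 3.94 in mTEClo, and lay 30664 bp from the start. Cyp4f16 had 3 and 1 peaks in mTEChi and 2 and 1 in mTEClo. The remaining 4 genes of the cluster were each missed by at least 1 library.

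The Cyp2j cluster on chromosome 4, epoxygenases of arachidonic acid, held 11 and 17 peaks in mTEChi and 12 and 10 in mTEClo. Cyp2j9 had 2 and 1 peaks in mTEChi and 2 and 2 in mTEClo, and its region at chr4:96591517-96591952 lay just upstream of the start in all 4 libraries. Its summits were 309 and 277 bases upstream in mTEChi and 317 and 182 in mTEClo, with scores of 2.38 and 2.03 in mTEChi and 8.31 and 11.7 in mTEClo. Cyp2j13 had 1 and 1 peaks in mTEChi and 2 and 2 in mTEClo. On chromosome 7, Cyp2s1, an epithelial member of airway and skin, had 1 and 1 in mTEChi and 2 and 1 in mTEClo, and Cyp2b10, the phenobarbital-induced target of the receptor CAR, had 1 and 4 in mTEChi and 3 and 1 in mTEClo. Cyp2b9 had 1 peak in each library, at 4 different positions. Cyp2f2, which activates naphthalene in the club cells of the airway, had 1 and 2 peaks in mTEChi and 3 and 3 in mTEClo, 0.949 peaks per 10 kb, the highest of the clustered genes.

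Few Cyp genes were called in 1 cell state alone. The mTEChi libraries alone, both of them, called 2 genes (2.15%, against 1.67% of all genes), and the mTEClo libraries alone, again both of them, called 5 (5.38%, against 2.14%). The mTEChi pair was Cyp2c38, with 3 and 1 peaks and best scores of 4.08 and 2.88, and Cyp2j8, with 1 and 1 peaks and scores of 2.38 and 2.88. The mTEClo set was Cyp2c66 (2 and 1 peaks), Cyp2c29 (1 and 1), Cyp4a31 (2 and 1), Cyp2b23 (1 and 2) and Cyp2b19 (1 and 2), none of which had a peak in mTEChi. All 7 are clustered genes, and in none of them did the best summits of the 2 libraries lie within 1 kb of each other. Leaving out a library removes 1 condition of the rule, so these counts could then only stay or rise. The mTEChi count was 9 without mTEChi 1, 4 without mTEChi 2, 13 without mTEClo 1 and 4 without mTEClo 2, and the mTEClo count was 11 without mTEChi 2, 8 without mTEClo 1 and 10 without mTEClo 2.

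The Cyp2d cluster on chromosome 15, relatives of the human debrisoquine hydroxylase, held 6 and 6 peaks in mTEChi and 19 and 16 in mTEClo, or 13.8 and 13.8 per Mb against 43.8 and 36.9. This span was singled out of 8 clusters after its values were seen, it includes genes and sequence between the Cyp genes, and it was not tested. Within it Cyp2d22 had 0 and 1 peaks in mTEChi and 3 and 3 in mTEClo, with a region at chr15:82369759-82370240 in both mTEClo libraries alone (scores 5.12 and 3.03). The Cyp3a cluster on chromosome 5 held 4 and 4 peaks in mTEChi and 9 and 5 in mTEClo. The Cyp2b23 to Cyp2t4 stretch of chromosome 7 held 4 and 8 in mTEChi and 12 and 9 in mTEClo, and the Cyp4a and Cyp4b1 cluster of chromosome 4 held 3 and 4 in mTEChi and 8 and 2 in mTEClo.

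The number of peaks per gene was compared between states with limma on log2 of peaks per 100000 listed peaks plus 1, for genes with a mean of at least 1 peak. Of 14874 genes tested, 0 passed at a Benjamini-Hochberg adjusted p of 0.05 (0.0%), with 1200 under an unadjusted 0.05. Of the 44 Cyp genes tested, 0 passed and 2 were under the unadjusted level. These were Cyp2d22, with a log2 difference of -1.71 (SE 0.66, limma adjusted p = 0.553), and Cyp2c39, with 1.5 (SE 0.70, limma adjusted p = 0.597). The remaining Cyp genes had too few peaks to enter. With the 10000 highest peaks, 219 of 3762 genes tested passed. Only 1 Cyp gene entered that test and 0 passed, so it cannot show whether Cyp genes differ.

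Over all Cyp windows together there were 81 and 102 peaks in mTEChi and 111 and 88 in mTEClo, or 23.7 and 29.8 per Mb against 32.4 and 25.7. Divided by the density in the windows of all genes, the Cyp windows stood at 0.638 and 0.691 in mTEChi and 0.699 and 0.727 in mTEClo, so all 4 libraries lay under 1. The means were 0.665 ± 0.038 in mTEChi and 0.713 ± 0.019 in mTEClo (SD, n = 2 each). The mTEChi values lay below the mTEClo values, but 2 against 2 libraries cannot give an exact permutation p under 0.333, and the difference of -0.0485 was -0.0035 when each list was cut at its median score.

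Starts of transcription were occupied less often in Cyp genes than in all genes. RefSeq promoter windows, 250 bases before to 50 after a start, matched 73 of the 93 genes, and a start counted as occupied when a summit lay within 1 kb. Of the 73, 26 had an occupied start in any library (35.6%, against 62.3% of all genes with a window) and 4 in all 4 libraries (5.48%, against 17.9%). These 4 were Cyp1b1, Cyp2j9, Cyp46a1 and Cyp51. Cyp20a1, a conserved member without a known substrate, and Cyp2r1 had an occupied start in 3 libraries.

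CpG dinucleotides were counted in the same 300-base windows. The median was 3 CpG per 300 bases over the 73 Cyp genes, 2 over the 48 clustered genes and 15 over all genes. Of Cyp genes with 0 to 4 CpG, 13 of 54 had an occupied start in any library (24.1%, against 23.3% of all genes in that range). With 5 to 9 CpG it was 5 of 9 (55.6%, against 50.1%), and with 10 or more 8 of 10 (80%, against 82.2%). In all 4 libraries the counts were 0 of 54, 1 of 9 and 3 of 10, against 1.04%, 6.51% and 27.8% of all genes. The upper 2 ranges rest on 9 and 10 Cyp genes, and the part of CpG content in the occupancy of Cyp starts was not tested.

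**Figure D5:**
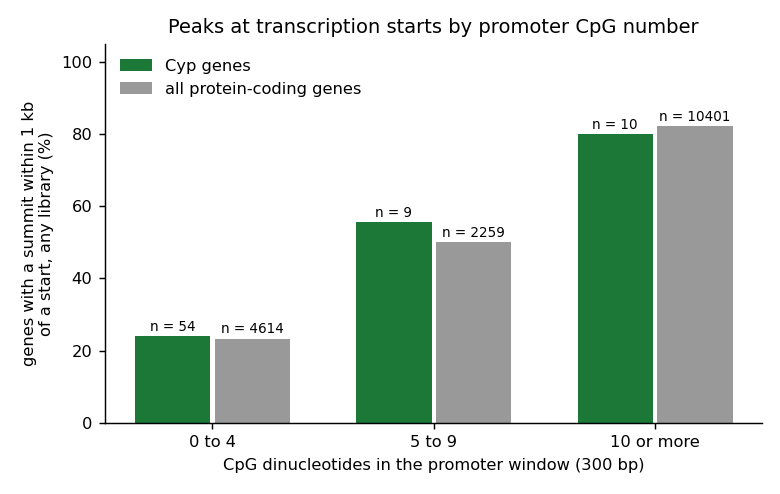
Share of genes with a summit within 1 kb of the start in any library (%, vertical axis from 0), by number of CpG dinucleotides in the 300-base promoter window, for Cyp genes and for all protein-coding genes. Cyp genes stand at 24.1%, 55.6% and 80% and all genes at 23.3%, 50.1% and 82.2%.

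Upstream sequences of 4 further genes show this range, all from RefSeq GRCm38.p6, on the gene's strand, with CpG in capitals. Their CpG are counted over the 250 bases printed, and not over the 300-base window used for the ranges above. Cyp2r1 (chr7:114562973-114563222, minus strand, 16 CpG) had summits 158 bases inside the gene and 85 bases upstream in mTEChi and 131 bases upstream in mTEClo 1. Cyp4f13 (chr17:32947362-32947611, minus strand, 3 CpG) had a summit 43 bases upstream in mTEChi 1 and 35 bases inside in mTEClo 1. Cyp2j9 (chr4:96591486-96591735, minus strand, 4 CpG) has 6 CpG in the 300-base window and is the start of the 5 to 9 range with a summit within 1 kb in all 4 libraries. Cyp2c40 (chr19:39812815-39813064, minus strand, 1 CpG) is the longest Cyp gene with no peak, and in it the HNF4 motif is also in capitals.
Cyp2r1: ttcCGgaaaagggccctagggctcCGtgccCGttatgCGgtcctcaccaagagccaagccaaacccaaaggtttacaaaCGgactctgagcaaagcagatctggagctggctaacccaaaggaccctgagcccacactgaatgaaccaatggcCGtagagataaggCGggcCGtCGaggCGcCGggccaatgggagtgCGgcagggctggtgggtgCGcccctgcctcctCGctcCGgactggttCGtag
Cyp4f13: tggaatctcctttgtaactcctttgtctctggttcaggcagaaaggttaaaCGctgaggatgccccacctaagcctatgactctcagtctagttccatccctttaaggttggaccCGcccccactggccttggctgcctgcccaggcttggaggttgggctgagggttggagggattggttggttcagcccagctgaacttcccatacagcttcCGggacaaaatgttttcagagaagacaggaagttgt
Cyp2j9: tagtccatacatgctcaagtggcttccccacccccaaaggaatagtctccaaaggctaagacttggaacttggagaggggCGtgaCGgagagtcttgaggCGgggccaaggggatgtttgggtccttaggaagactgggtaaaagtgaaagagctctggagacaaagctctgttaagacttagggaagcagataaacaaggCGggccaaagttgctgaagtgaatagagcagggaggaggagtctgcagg
Cyp2c40: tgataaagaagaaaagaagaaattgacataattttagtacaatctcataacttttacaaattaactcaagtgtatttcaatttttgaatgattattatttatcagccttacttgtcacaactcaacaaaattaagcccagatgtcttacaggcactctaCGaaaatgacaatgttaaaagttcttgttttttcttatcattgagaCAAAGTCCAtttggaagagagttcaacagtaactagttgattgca

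Short motifs were counted in the 300-base windows on both strands, each on its own, so matches of different motifs may share bases. The TATA box TATAAA was present in 23 of 48 clustered genes (47.9%) and in 14.9% of all 17274 genes with a window. CAAAGTCCA, a site of the liver factor HNF4, was present in 7 of the 48 (14.6%) and in 0.527% of all genes. The GC box GGGCGG was present in 8 of the 48 (16.7%) and 49.8% of all genes, and the Ets site CCGGAAG in 1 (2.08%) and 13.1%. CCAAT stood at 47.9% of clustered and 42.7% of all genes, the E-box CANNTG at 79.2% and 72.1%, the AP-1 site TGANTCA at 8.33% and 8.19%, and the dioxin response core GCGTG at 14.6% and 41.9%. The sterol element TCACNCCAC was in 3 clustered genes (6.25%, against 1.42% of all genes) and in none of the 4 sterol genes with a window, and CAAGGTCA, the site of the bile acid regulator LRH-1, was in 0 of 73 Cyp genes, against 1.51%. The p53 half-site was in 6 of the 48 clustered genes (12.5%) and 6 of 73 Cyp genes (8.22%), against 8.54% of all genes. These are matches of letters and not sites of binding. Only the patterns given were searched, so a window without a match may still hold a variant of the site.

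Copies within a cluster can be nearly identical, and how reads that map to several places were treated is not given in the sources used here. Of the 48 clustered promoters, 22 shared over 10% of their 25-base words with the window of another gene (45.8%, against 19.8% of all genes). Their median density was 0.0659 peaks per 10 kb, against 0.289 in the 26 clustered genes at or under that level. Over all genes the same values were 0.294 and 0.490. Of the 26 clustered genes with little shared sequence, 6 were called in all 4 libraries (23.1%, against 55.1% of all such genes). The part of read mapping in the low calls of the clusters was not tested.

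Genes that work with the P450 enzymes are given beside the 51.9% of all genes that were called in all 4 libraries. Of 19 genes of cholesterol synthesis, 17 and 19 were called in mTEChi and 17 and 16 in mTEClo, and 14 in all 4 libraries (73.7%). Best scores of Mvd, which makes isopentenyl diphosphate, were 23.6 and 11.1 in mTEChi and 17.3 and 27.5 in mTEClo, and those of Hmgcs1, an early enzyme of the pathway, 18.2 and 11.3 in mTEChi and 18.9 and 7.75 in mTEClo, in each library above that of Cyp51 in the same pathway. Of 6 redox partners, 4 were called in all 4 libraries (66.7%). Por, the reductase of all microsomal P450 enzymes, had best scores of 28.5 and 21.2 in mTEChi and 17.3 and 9.65 in mTEClo, and Fdxr, the mitochondrial ferredoxin reductase and a known p53 target, 65.7 and 24.6 in mTEChi and 22.8 and 9.65 in mTEClo. Of 15 receptors and regulators of Cyp genes, 12 were called in all 4 libraries (80%). Nr1i3, which encodes CAR, had best scores of 40.9 and 14.4 in mTEChi and 30.5 and 24.4 in mTEClo. A summit lay within 1 kb of its start in only 1 library. Other genes within 5 kb were not looked up for it, so these peaks cannot be assigned to Nr1i3.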

How the data were processed

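CUT&RUN peak lists of 4 libraries were used as deposited, 1 list per library. The submitters' processing notes name the mm10 build and the tools MACS2 2.2.7.1, Bowtie2 2.2.9, SAMtools 1.9 and Picard. Their settings, and whether a control entered peak calling, were not given in the sources used here. Each deposited interval is a summit with 150 bp on each side, in base positions of the authors' lists. The deposited score was taken for a −log10 significance (p or q, not stated which) from the authors' peak caller, and its minimum was 2.00. Gene intervals and promoter sequences came from RefSeq tables of GRCm38.p6, and all 93 symbols matched. Coordinates count from 1.

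The members and gene lists were chosen with earlier results of these data known. Named were all members of the sterol, steroid hormone, vitamin D and retinoid, and Cyp1 lists. The clustered genes called in all 4 libraries, the genes called in 1 state alone, the 5 densest, the 5 longest with no peak, and those with a region in all 4 libraries were named too, as were top genes of other lists. Cyp2d22, Cyp2c39, Cyp20a1, Cyp2u1, Cyp2w1, Cyp2e1 and the Cyp2d cluster, and the promoters of Cyp51, Cyp2j9 and Cyp2c40, were chosen after their values were seen. Peaks in genes that overlap count for each gene. The 95% interval of a difference of shares came from Wilson intervals and covers counting error only. limma 3.58.1 in R 4.3.3 gave the per-gene test, without the replicate number as a block, since the labels do not tie it to an animal or day. Deviations of same-numbered libraries did not correlate (r = -0.008 over 14874 genes), which does not settle whether they were paired. Python 3.11.15 with numpy 2.4.6, pandas 2.3.3 and scipy 1.17.1 was used, and some steps were tested on simulated data. For limma, changes were simulated only in genes with more peaks than any Cyp gene had. That test does not show whether a change at a Cyp gene could be found.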

Additional observations from a re-analysis of the deposited data

How the results depend on the processing

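Of 119 alternative values, 77 stayed near the main one and 42 moved. Only differences could reverse in sign, which counts cannot, and none did. Of the 77, 12 are the limma count of Cyp genes, which was 0 throughout. With a window of 1 kb, 4 Cyp genes were called in mTEChi alone. With 25 kb, 60 were called in both mTEClo libraries and 42 in all 4, and the density difference between clustered and sterol genes was -0.298 peaks per 10 kb. With gene ends only, 15 were called in all 4 and that difference was -0.696. With lists cut at their median score, 17 were called in both mTEChi and 14 in both mTEClo libraries, 6 in all 4, 3 had a region in all 4, the ratio difference was -0.0035 and the density difference -0.216. With equal list lengths, 4 were called in mTEChi alone and 2 in mTEClo alone. With the 10000 highest peaks, 2 were called in both mTEChi and 3 in both mTEClo libraries, 1 in all 4, 0 in mTEChi alone and 2 in mTEClo alone, and 1 had a region in all 4. The ratio difference was then -0.112, the share difference -14.3 points, the density difference -0.106 and the limma count over all genes 219. With summits within 75 bp, 2 had a region in all 4.

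Leaving out 1 library, after which its state rests on the other library, gave 39 to 59 genes called in both mTEChi libraries, 37 to 62 in both mTEClo, 26 to 35 in all 4, 4 to 13 in mTEChi alone, 7 to 11 in mTEClo alone and 6 to 10 with a region in all 4. Except for the regions, these counts can only stay or rise when a library is left out. The density difference was then -0.443 to -0.302, the share difference -78.9 to -50.4 points and the ratio difference -0.075 to -0.022, with 0 to 98 genes called by limma. The replicate block gave 14 genes over all genes, against 0 without it, and 0 Cyp genes (lowest limma adjusted p of a Cyp gene = 0.441). The labels do not say whether same-numbered libraries are pairs. The share called in all 4 libraries was lower in clustered than in sterol genes under each setting run, at times by few genes. With the 10000 highest peaks it was 0 of 57 clustered against 1 of 7 sterol genes, and 11.3% of all genes. With lists cut at their median score it was 1 of 57 against 2 of 7. That sterol share, 28.6%, lay below the 33.9% of all genes. Clusters redefined by subfamily, chosen after seeing the data, gave differences of -56.4 points and -0.434.

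Depth is unknown and each state has 2 libraries, so a gene without a listed peak is not shown to lack signal. Counts fall steeply as the score limit rises, and with the highest peaks the Cyp genes leave almost nothing to compare. Peak numbers per gene are mostly 0 to 4, and a change of 1 peak in 1 library moves a call.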

Other observations

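Regions held by 1 cell state alone lay in a smaller share of Cyp genes than of all genes. A region with the mTEChi libraries alone, both of them, lay in or near 3 Cyp genes (3.23%, against 12.7% of all genes), namely Cyp27a1, Cyp27b1 and Cyp19a1. A region with the mTEClo libraries alone lay in or near 7 (7.53%, against 17.3%), namely Cyp2f2, Cyp46a1, Cyp19a1, Cyp1a1, Cyp27a1, Cyp2d22 and Cyp4f13. In Cyp2f2 there were 2 such regions, chr7:27118014-27118453 with scores of 7.96 and 6.57 and chr7:27128162-27128467 with scores of 7.39 and 4.93. Cyp27a1 and Cyp19a1 had regions of both kinds.

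Among the 14 genes in no other group, Cyp2u1, a fatty acid hydroxylase whose human counterpart is expressed in thymus and brain, had 2 and 2 peaks in mTEChi and 1 and 3 in mTEClo. Its best summits lay at chr3 position 131303319 in mTEChi 1 and at 131303186 and 131303221 in mTEClo, while that of mTEChi 2 lay at 131298226. Cyp2w1, a member known from human colon tumours, had 0 and 2 peaks in mTEChi and 2 and 2 in mTEClo. Cyp2e1, the ethanol-oxidising enzyme of liver, had 0 and 3 in mTEChi and 1 and 0 in mTEClo.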
